A study of Homo sapiens with 2 samples.

Results

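Collagen genes were read on the Affymetrix arrays of HUES9 outgrowth cultures, as all probe sets that the platform annotation assigns to 1 of 39 collagen chain genes alone. Of the 39 genes, 38 had such a probe set, 102 probe sets in all, out of 19775 genes named on the arrays, and COL17A1 had none. HUES9 is a human embryonic stem cell line. It was taken at passage 32, grown for 10 days as embryoid bodies, then grown out on fibronectin, in medium of defined composition, to outgrowth passage 5. One series of cultures received the solvent DMSO at 0.01% throughout (control-OG). The other received SB-431542, an inhibitor of the receptor kinases of TGF-β, activin and nodal, at 10 µM in the embryoid body stage and at 1 µM in the outgrowth stage (SB-OG). In each condition 3 samples were mixed and read on 1 array, so there is no replicate, no p-value is given, and every difference compares this pair of arrays from 1 cell line.

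Collagens are the main structural proteins of connective tissue. Each molecule is a rope of 3 α chains, encoded by 1 or more genes per collagen type, wound around each other along stretches in which glycine recurs at a fixed spacing. Fibrillar collagens build the fibres of skin, bone, tendon and cartilage. Type IV chains form the sheet-like network of basement membranes, FACIT collagens sit on the surface of fibrils, and type VI forms beaded microfibrils around cells, muscle fibres included. In fibroblasts, TGF-β is a well known inducer of fibrillar collagen genes.

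Intensities are linear and in the deposited units. The background level, 32.6 on control-OG against 27.6 on SB-OG, is the 95th percentile over 213 probe sets of genes taken to be silent, such as olfactory receptors. A gene took the value of its brightest probe set, chosen on the log2 intensities of both arrays averaged, and a difference is log2 intensity in SB-OG minus control-OG, after values under background were raised to it. Where only 1 of the arrays was above background the fold is thus a lower bound, written "at least". Levels of different genes are not compared, since probe sets differ in efficiency. Between probe sets of one gene, differences varied with a pooled SD of 0.46 on the log2 scale over 4930 genes, and 0.53 over 17 collagen genes with several probe sets above background on both arrays.

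Of the 38 genes, 31 exceeded background on 1 or both arrays. Among these, 9 were lower in SB-OG by 2-fold or more, 7 at least 2-fold higher and 15 within 2-fold. Of all 12499 genes above background, 13.0% were 2-fold lower and 12.4% 2-fold higher, against 29.0% and 22.6% of the collagen genes; whether these shares differ was not tested. The median difference of the collagen genes was -0.53, from -4.61 for COL11A1 to 2.23 for COL2A1, beside -0.02 for all genes. When SB-OG was rescaled on the spiked hybridisation controls, the median of all genes moved up by 0.48, and 5 collagen genes were then 2-fold lower and 9 higher. That shift is the same for every gene, so it cannot change the difference between the collagen median and the median of all genes, -0.51. Under the alternatives that can change it, this difference ran from -0.61 without a floor to -0.32 over probe sets specific by name. It was -0.37 under quantile normalization and -0.35 under lowess correction. In RNA of whole cultures, fewer cells of a type and less RNA per cell cannot be told apart.

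**Figure D1:**
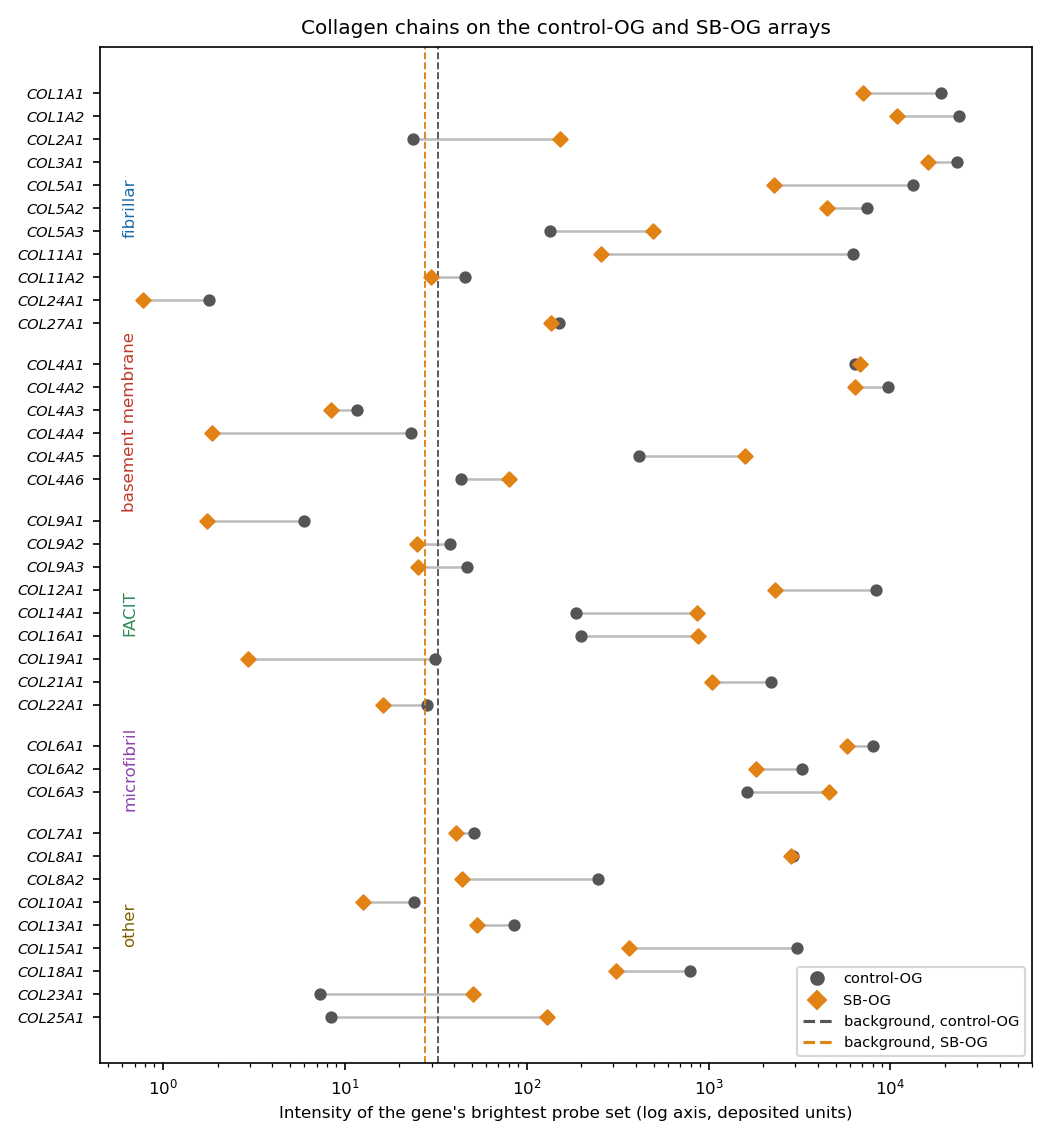
Intensity of the brightest probe set of each of 38 collagen genes on the control-OG array (grey circles) and the SB-OG array (orange diamonds), on a log axis, grouped by structural class. Dashed lines mark the background level of each array, 32.6 and 27.6, and the longest distance between circle and diamond among the genes above both lines is that of COL11A1, from 6243 to 256.

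Upstream sequence is shown for the chains on which the contrasts below turn: the stretch between COL4A1 and COL4A2, which are transcribed away from each other, the 250 bases before the start of the most reduced chain, COL11A1, those before COL5A1 and COL5A3, chains of one collagen type that differed in opposite directions, and those before COL4A5, the type IV chain with the largest difference. Sequences are from RefSeq on GRCh38.p14, which held a window for 29 of the 39 genes and several windows for 8 of these. The first listed window of each gene gave the sequences shown and the distances between starts, and another start would give another distance. They are written 5′ to 3′, on the strand of the gene and, for the COL4A1 and COL4A2 stretch, on that of COL4A2. Capitals mark matches on either strand to CCAAT, the GC box GGGCGG, the TATA box TATAAA, the E-box form CAGCTG and the SMAD element CAGACA; no 2 marked matches overlap.
COL4A1-COL4A2, chr13:110307158-110307283: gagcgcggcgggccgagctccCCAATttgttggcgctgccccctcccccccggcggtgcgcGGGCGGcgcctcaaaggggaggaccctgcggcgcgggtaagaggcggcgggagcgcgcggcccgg
COL11A1, chr1:103108523-103108772, minus strand: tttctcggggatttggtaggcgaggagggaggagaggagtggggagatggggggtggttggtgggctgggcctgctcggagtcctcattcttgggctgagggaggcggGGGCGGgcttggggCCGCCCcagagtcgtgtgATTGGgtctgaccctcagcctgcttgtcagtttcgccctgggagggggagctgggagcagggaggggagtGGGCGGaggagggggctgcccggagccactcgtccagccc
COL5A1, chr9:134641553-134641802, plus strand: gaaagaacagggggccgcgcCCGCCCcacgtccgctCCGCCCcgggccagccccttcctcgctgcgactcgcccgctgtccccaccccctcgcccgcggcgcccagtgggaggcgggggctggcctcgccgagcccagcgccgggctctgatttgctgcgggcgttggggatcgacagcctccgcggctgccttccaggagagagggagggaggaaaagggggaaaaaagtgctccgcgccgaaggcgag
COL5A3, chr19:10010505-10010754, minus strand: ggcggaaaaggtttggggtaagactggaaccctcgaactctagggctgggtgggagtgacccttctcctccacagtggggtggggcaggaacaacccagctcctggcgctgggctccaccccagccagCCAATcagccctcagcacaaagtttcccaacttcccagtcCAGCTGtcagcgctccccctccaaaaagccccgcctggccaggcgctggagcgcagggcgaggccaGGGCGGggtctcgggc
COL4A5, chrX:108439588-108439837, plus strand: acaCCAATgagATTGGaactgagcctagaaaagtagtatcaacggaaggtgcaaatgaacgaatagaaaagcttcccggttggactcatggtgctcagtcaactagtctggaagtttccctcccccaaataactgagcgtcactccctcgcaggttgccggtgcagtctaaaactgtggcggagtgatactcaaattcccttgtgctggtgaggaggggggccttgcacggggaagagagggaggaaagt

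The GC box was found in 56.1% of 41 upstream windows of collagen genes, beside 42.6% of all 35116 windows of that length. CCAAT was found in 26.8% beside 32.0%, TATAAA in 17.1% beside 10.7%, CAGCTG in 9.76% beside 13.99% and CAGACA in 7.32% beside 13.6%. Of the 29 genes with a window, 20 had a GC box, where a gene with several windows was counted if any window held the letters. The 42.6% is counted per window, so it is no match for this count by gene. The 10 genes without a window included COL1A1 and COL1A2, both 2-fold lower, and COL2A1 and COL14A1, both 2-fold higher. Among the 29, 7 were 2-fold lower in SB-OG and all 7 had a GC box, while 2 of the 5 that were 2-fold higher had one. Whether these shares differ from that of the 29 genes was not tested. CAGCTG was present for COL5A3, COL11A2, COL27A1 and COL16A1, of which COL5A3 and COL16A1 were 2-fold higher. CAGACA was found for COL4A6, COL7A1 and COL10A1, none of them 2-fold apart. These are letters in a window and carry no information on binding.

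Of 10 fibrillar collagen genes above background, 4 were lower in SB-OG by 2-fold or more (COL11A1, COL5A1, COL1A1 and COL1A2) and 2 at least 2-fold higher (COL2A1 and COL5A3). The class median was -0.68 and was negative under each of the rescalings tried. COL1A1, the α1 chain of type I collagen, the main protein of bone and skin fibres, had an intensity of 18867 on control-OG against 7025 on SB-OG, a 2.69-fold lower value. COL1A2, its partner chain α2, had 23808 on control-OG, the highest intensity of all 54675 probe sets of that array, and 10863 on SB-OG, 2.19-fold lower. The log2 differences of these probe sets were -1.43 and -1.13, while other probe sets ran from -2.97 to -0.59 for COL1A1 and from -2.26 to -0.96 for COL1A2. By the brightest probe set both came within 2-fold when rescaled on the hybridisation controls, at -0.95 and -0.66, and COL1A2 also did under quantile normalization and lowess correction. Whether the top of the scanner range limited the control-OG values was not tested.

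COL3A1, the chain of type III collagen, which mixes with type I in stretchable tissue, had 23202 on control-OG against 16120.2 on SB-OG, a 1.44-fold difference that stayed under the 2-fold limit. Its other probe sets were at -2.04 to -0.52, and with a probe set specific by name it was at -2.04. COL27A1, a fibrillar chain of cartilage, was at 149.8 and 137, a log2 difference of -0.13 that turned to 0.34 under hybridisation control scaling. COL24A1, a further minor fibrillar chain, was under background on both arrays, at 1.79 and 0.78.

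Type V and type XI collagens are made in small amounts, start the assembly of fibrils and set their diameter. COL11A1, the α1 chain of type XI, had the largest difference of any collagen gene, with 6243 on control-OG against 256 on SB-OG, 24.4-fold lower. Its other probe sets were at -5.21 and -3.52, the second a bound. COL11A2, the α2 chain, was near background on both arrays, at 46.1 and 29.7, with a log2 difference of -0.64. A second COL11A2 probe set was at 1.83 and 28.5, the latter just above the SB-OG background.

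The type V chains went in opposite directions. COL5A1, the α1 chain present in most type V molecules, went from 13331 on control-OG to 2291 on SB-OG, 5.82-fold lower, and its other probe sets gave -2.57 and -2.26. COL5A2, the α2 chain, was at 7469 and 4504, a difference of -0.73 by its brightest probe set and -1.79 by the other. COL5A3, the α3 chain, was at 134 and 492, 3.68-fold higher, with its other probe set at 3.37 as a bound. The distance between COL5A1 and COL5A3 was 4.42 on the log2 scale, the widest within a type, and both chains kept their side of the 2-fold limit under each alternative tried. COL2A1, the chain of type II collagen in cartilage, was under background on control-OG at 23.8 and at 153 on SB-OG, at least 4.70-fold higher, with its other probe set at 1.10. Of 9 cartilage markers, 3 exceeded background, of which 2 were 2-fold lower in SB-OG and none higher; under hybridisation control scaling none was lower and 1, ACAN, higher. ACAN, the cartilage proteoglycan, was at 33.3 and 49.7, SOX9, the regulator of COL2A1 in cartilage, at 106 and 49.9, and HAPLN1, a link protein of cartilage matrix, at 69.6 and 17.5, at least 2.52-fold lower.

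**Figure D2:**
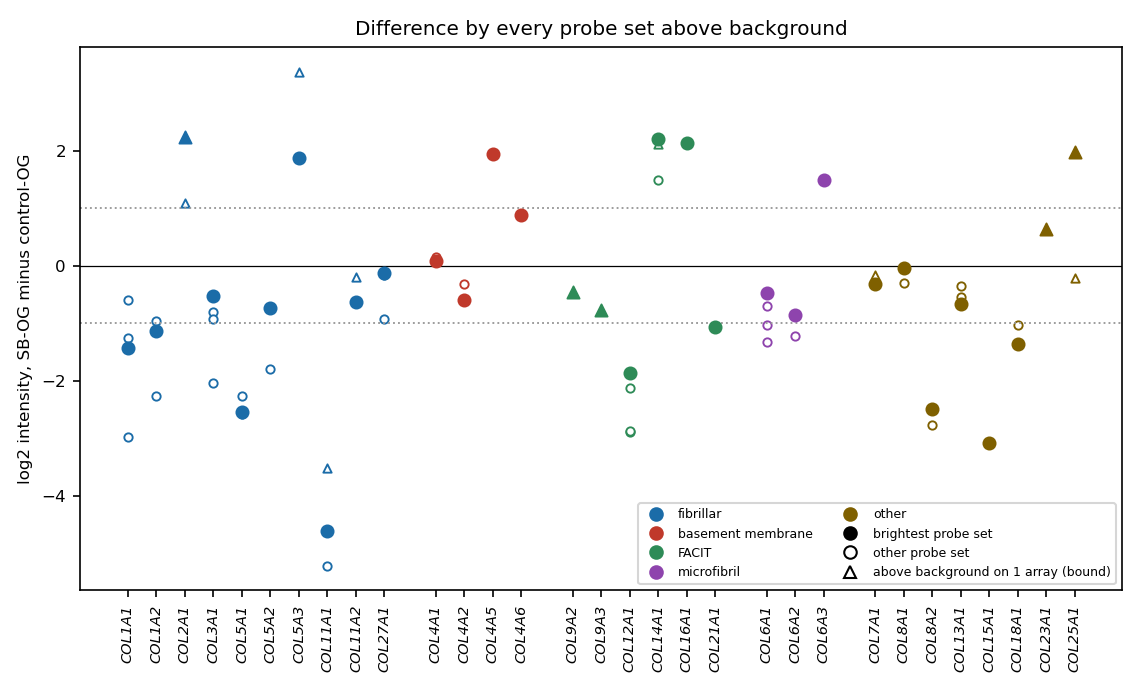
Log2 difference, SB-OG minus control-OG, of every probe set above background for 31 collagen genes, coloured by class; filled symbols are the brightest probe set, open symbols the others, triangles are bounds and dotted lines mark 2-fold. The probe sets of COL11A1 lie between -5.21 and -3.52 and those of COL14A1 between 1.48 and 2.21, while those of COL1A1 spread from -2.97 to -0.59.

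Of the basement membrane chains, 4 of 6 exceeded background, none of these was 2-fold lower in SB-OG and 1 was higher. Their median was 0.49, and 0.09 over probe sets specific by name, where COL4A5 gave no value. COL4A1 and COL4A2, which together make the type IV molecule found in nearly all basement membranes, are read in opposite directions with 126 bases between their starts, the stretch shown above. COL4A1 had 6399.8 on control-OG against 6807 on SB-OG, a log2 difference of 0.09, with 0.15 by its other probe set. COL4A2 had 9736 and 6425, a difference of -0.60, with -0.32 by its other probe set. Neither chain reached 2-fold under any alternative.

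The other type IV chains, which replace these in kidney, eye, ear and smooth muscle, lie in 2 further head-to-head pairs. By the first listed start of each gene, 379 bases lie between COL4A5 and COL4A6 and 418 between COL4A3 and COL4A4. COL4A5 went from 414 on control-OG to 1596 on SB-OG, 3.86-fold higher. COL4A6, its neighbour, was at 43.4 and 80.3, 1.85-fold higher. COL4A6 passed 2-fold only under hybridisation control scaling, at 1.36. COL4A3, with 11.7 and 8.44, and COL4A4, with 23.1 and 1.86, were under background on both arrays, as were all the other probe sets of this pair. By the brightest probe set, the neighbouring genes of each pair were thus both detected or both undetected. However, COL4A5 was above background by 1 of its 2 probe sets and COL4A6 by 1 of its 3. The range of differences over the detected type IV chains was 2.55.

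FACIT collagens divided evenly, with 2 of 6 genes above background lower in SB-OG by 2-fold or more and 2 at least 2-fold higher. COL12A1, which coats type I fibrils in tissues under tension, went from 8374 on control-OG to 2313 on SB-OG, 3.62-fold lower, and its other probe sets were at -2.89 to -2.12. COL14A1, its closest relative, which also binds type I fibrils, went from 187 to 860.4, 4.61-fold higher, with its other probe sets at 1.48 to 2.21. The fibril coats thus differed in opposite directions, and both kept their side of the 2-fold limit under each of 8 alternatives. COL16A1, a FACIT-like chain of many connective tissues, was at 199 and 878, 4.42-fold higher. COL21A1, a chain known from vessel walls, was at 2196 and 1048, 2.10-fold lower, and within 2-fold under all 3 rescalings.

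Of the type IX chains, which decorate cartilage fibrils, COL9A2 was at 37.9 and 25.0 and COL9A3 at 46.8 and 25.4. Both were above background on control-OG alone, and the differences of -0.46 and -0.76 are bounds close to the background level; that of COL9A2 turned to 0.02 under hybridisation control scaling. COL9A1, COL19A1 and COL22A1 were under background on both arrays by their brightest probe set, with 31.2 on control-OG for COL19A1 the highest value of these. COL22A1, a chain of the junction between muscle and tendon, is thus not among the 31 genes, although another of its probe sets, with a lower mean log2 intensity, was at 9.67 on control-OG against 43.6 on SB-OG, above the background there. The class median of -0.61 had no stable sign, being 0.84 over probe sets specific by name and 0.54 with the background level at the 99th percentile.

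Type VI collagen, the microfibril class, had 1 chain 2-fold higher in SB-OG and 2 within 2-fold. COL6A1 had 7984 on control-OG against 5741 on SB-OG, a difference of -0.48, with its other probe sets at -1.33 to -0.47. COL6A2 had 3275 and 1813, a difference of -0.85, with its other probe set at -1.21. COL6A3, whose long chain joins COL6A1 and COL6A2 products in the common type VI molecule, had 1631 and 4590.3, 2.81-fold higher by its only probe set. The COL6A3 difference lay 2.35 above that of COL6A2 on the log2 scale. The sign of these 3 chains was the same under each rescaling, although COL6A1 came to 0.00 in size when scaled on the hybridisation controls.

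**Figure D3:**
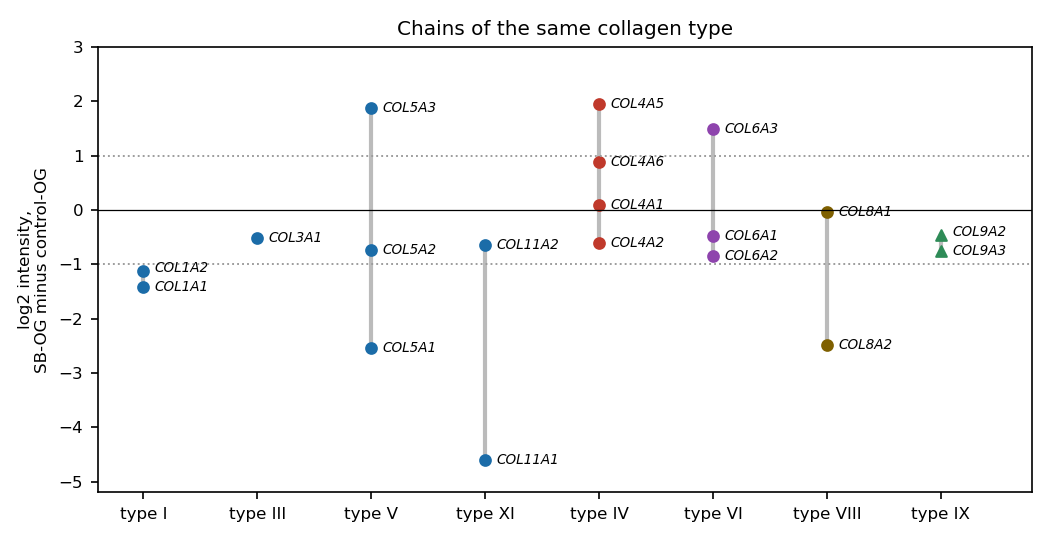
Log2 difference, SB-OG minus control-OG, of each chain by its brightest probe set, arranged by collagen type; triangles are bounds, grey bars span the chains of a type and dotted lines mark 2-fold. Type I chains lie 0.29 apart, whereas the chains of type V lie 4.42 apart and those of type XI 3.97 apart. The type XI distance rests in part on COL11A2, a chain close to background in both conditions. The background floor limits how negative the COL11A2 difference could be. Type III is represented by COL3A1 alone.

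Among the other collagens, 3 of 8 genes above background were lower in SB-OG by 2-fold or more and 1 at least 2-fold higher. Both multiplexins, basement membrane zone collagens that carry sugar chains and release endostatin-like fragments, were among the lower genes. COL15A1, abundant beneath muscle and vessel cells, went from 3079 on control-OG to 366 on SB-OG, 8.42-fold lower, second to COL11A1. COL18A1, the source of endostatin, went from 787 to 308, 2.55-fold lower, with its other probe set at -1.03 and a difference of -0.88 under hybridisation control scaling.

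The network collagens of type VIII, found in vessel walls and the cornea, differed from each other. COL8A1 had 2898 on control-OG against 2833 on SB-OG, and this difference of -0.03 changed sign under all 3 rescalings. COL8A2 had 246 and 43.9, 5.59-fold lower, with its other probe set at -2.77. COL10A1, the network collagen of hypertrophic cartilage, was under background on both arrays at 24.2 and 12.6. COL7A1, the anchoring fibril chain of skin, was low on both arrays at 51.1 and 41.1, a difference of -0.32 that turned to 0.16 under hybridisation control scaling.

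Of the 3 transmembrane collagens above background, 1 was 2-fold higher. COL25A1, which developing muscle uses to attract motor axons, was under background on control-OG at 8.44 and at 129 on SB-OG, at least 3.96-fold higher. Its second detected probe set was at 25.3 and 28.2, near background on both arrays, and the mean of its detected probe sets, 0.89, did not reach 2-fold. COL23A1 was at 7.30 and 50.9, at least 1.56-fold higher, and was 2-fold higher when no floor was set, at 2.80. COL13A1, a collagen of the neuromuscular junction, was at 84.9 and 53.4, a difference of -0.67, with its other probe sets at -0.54 and -0.35.

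Among 17 genes with several probe sets above background on both arrays, none had a probe set of opposite sign to the brightest, while sizes differed. Of 22 genes with several probe sets above background on at least 1 array, 2 (COL11A2 and COL7A1) had one that ran against the brightest in the deposited intensities. That of COL7A1 was at 15.0 on control-OG, under background, and at 29.4 on SB-OG. For both these genes, and for COL25A1, the sign of the second probe set turned when values were raised to background, which is higher on control-OG. Of 15 collagen genes with a negative difference and several probe sets above background on both arrays, the dimmest probe set was more negative than the brightest in 10, or 66.7%, beside 34.05% of 2435 such genes overall. This was widest in COL1A2, at -2.26 against -1.13, and in COL5A2, at -1.79 against -0.73. The comparison was made after the values had been seen. The printed folds of these chains rest on the brightest probe set.

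Of 20 detected genes that modify and fold collagen chains in the endoplasmic reticulum, 14 were 2-fold lower in SB-OG or more so and 1 was higher; the median was -1.35. The count of lower genes was 7 under hybridisation control scaling, with a median of -0.87. PLOD2, the lysyl hydroxylase of the collagen ends, was 41.2-fold lower, at 7091 on control-OG against 172 on SB-OG. P4HA3, a prolyl hydroxylase subunit, was at least 6.87-fold lower, FKBP10, a chaperone of type I collagen, 6.72-fold, and P3H1, a prolyl hydroxylase, 3.79-fold. Of 12 genes for processing and cross-linking, 6 were 2-fold lower and none higher; their median was -1.11. The cross-linking enzyme gene LOX was 22.8-fold lower, the procollagen protease enhancer PCOLCE2 10.6-fold, LOXL4 4.90-fold, and BMP1, the protease that trims procollagen, 4.06-fold.

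Among collagen receptors 4 of 8 were 2-fold lower in SB-OG and 1 was higher, with a median of -0.999. Under hybridisation control scaling 2 were lower and 2 higher, with a median of -0.52, and the mean of probe sets gave a median of -0.53. ITGA11, the integrin subunit that binds type I collagen on fibroblasts, was 11.5-fold lower, MRC2, the collagen uptake receptor, 4.65-fold with another probe set at -0.12, and ITGA2 at least 2.69-fold. ADGRG1, a receptor for type III collagen, was 2.32-fold higher. Among regulators of fibrillar collagen genes 7 of 16 were 2-fold lower and 2 higher. Their median was -0.64, and -0.16 under hybridisation control scaling. The shares of higher receptors and of higher regulators are close to the 12.4% of all genes above background, while 13.0% of all genes were lower. TGFB1, the ligand, was 7.15-fold lower with another probe set at -0.13. RUNX2, the osteoblast factor, was 6.16-fold lower with another probe set at -1.16, and CEBPB 5.08-fold lower. CREB5 was 5.15-fold higher, its other probe sets reading 0.28 to 0.77.

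**Figure D4:**
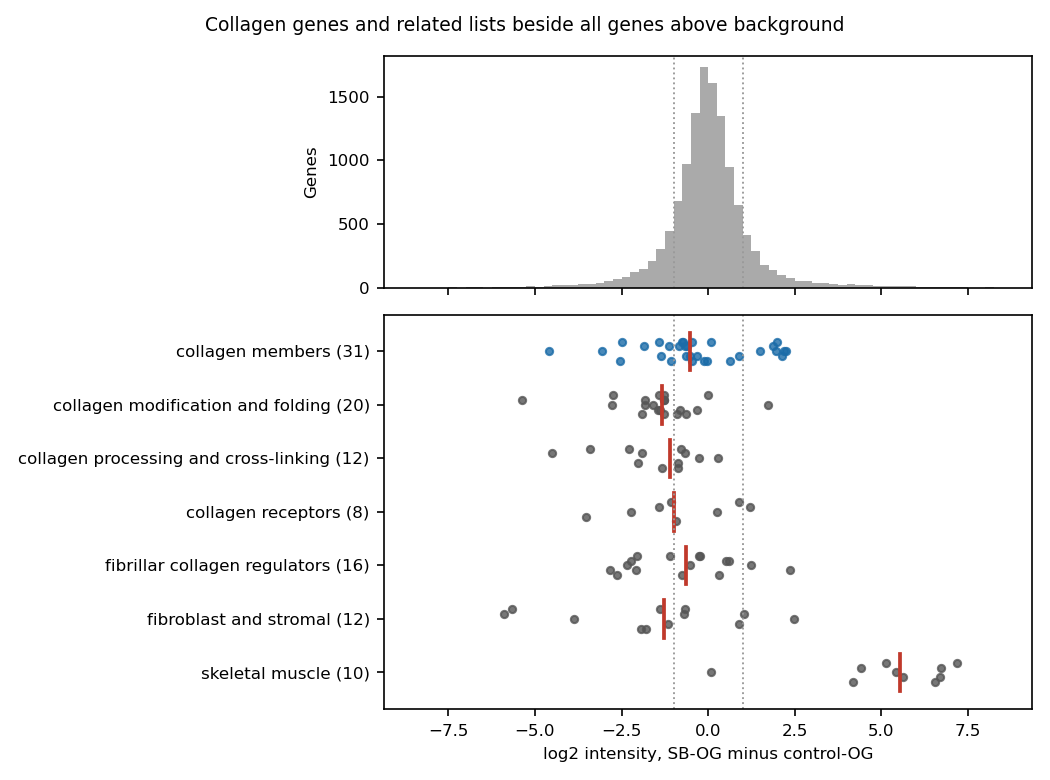
Top, histogram of log2 differences, SB-OG minus control-OG, of 12499 genes above background; bottom, each point is 1 gene above background of the named list, red bars are list medians, the number of genes is in parentheses and dotted lines mark 2-fold. The collagen genes spread to both sides around -0.53, while the modification and folding genes centre on -1.35 and the skeletal muscle markers on 5.53; rescaling on the hybridisation controls moves all points up by 0.48.

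Cell type markers also differed between the arrays, on which 13.0% of all genes above background were 2-fold lower in SB-OG and 12.4% higher. Of 11 skeletal muscle markers, 10 were above background and 9 at least 2-fold higher in SB-OG, their summed intensity going from 374 to 32618, with MYF5 under background on both arrays. Of 12 fibroblast and stromal markers, 7 were 2-fold lower and 2 higher, their sum going from 78233 to 40783. Of 9 epithelial markers 4 were above background by their brightest probe set. Of these, the keratins KRT8, KRT18 and KRT19 were 2-fold lower and CDH1 was higher. Of 8 endothelial markers 3 were above background, KDR and TEK 2-fold lower and PECAM1 within 2-fold. CDH5, TIE1, VWF, ERG and CLDN5 were under background on both arrays. Of 6 osteoblast markers with a probe set, 2 were above background, SPP1 2-fold lower and PHEX within 2-fold. Of 6 Schwann and neural crest markers with a probe set, 3 were above background by their brightest probe set. ERBB3 and TFAP2A were 2-fold higher and FOXD3 within 2-fold, while SOX10, CDH19 and TFAP2B were under background on both arrays. Of 5 pluripotency markers with a probe set, 1 (SOX2, in SB-OG) exceeded background by its brightest probe set, and DPPA4 by another one. The part of these markers in the collagen differences was not tested.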

How the data were processed

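RNA of the HUES9 outgrowths was labelled with biotin and read on 2 arrays, per the labels' protocols, and samples were grouped by title. Each deposited column holds 54675 probe sets with 1 linear intensity each; which program summarised the probes is unstated in the labels. Both arrays had a mean of 150.0 after trimming 2% of probe sets at each end and appear scaled to one level. The median log2 values differed by 0.05 and were used as deposited.

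Gene names came from the platform annotation of 2016, with symbols updated by gene ID to GRCh38.p14; only those with 1 gene were used. Every collagen gene is named. Of the other lists, up to 4 genes with the largest differences are named, besides DPPA4, TMEM38B and markers given as under background. COL22A1's second probe set, the list of collagens outside the members and the comparison of dim with bright probe sets were chosen after their values were seen. Members and lists were chosen with earlier results of these data known. The threshold was 2-fold, with 3-fold as an alternative. Other alternatives were quantile normalization, lowess correction (span 0.4), hybridisation control scaling over 18 probe sets, no floor, a pseudocount of 16, a background at the 99th percentile, the mean of the probe sets above background and, as probe sets specific by name, those lacking _s, _x and _a. The calculation of differences was checked on simulated arrays with known changes. These were put only into genes above background on both arrays, and alike into all probe sets of a gene. The check therefore does not bear on bounds or on probe sets that disagree. The number of arrays, 1 per condition, limits the precision. The tools were statsmodels 0.14.6, pandas 2.3.3 and numpy 2.4.6 under Python 3.11.15.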

Additional observations from a re-analysis of the deposited data

How the results depend on the processing

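Of 16 collagen genes at least 2-fold apart, 11 kept their call and sign under every alternative that kept the 2-fold threshold and gave a value, 10 of these were also past 3-fold (COL6A3 was not), and none of the 16 changed sign; of 15 genes within 2-fold, 6 passed 2-fold under some alternative. Under hybridisation control scaling 5 genes were 2-fold lower instead of 9, the median over all collagen genes was -0.050, and the class medians were -0.21 for fibrillar, 0.96 for basement membrane, -0.13 for FACIT, -0.00057 for microfibril and -0.017 for other collagens; every difference shifts by the same 0.48 there. At 3-fold, 5 genes were lower. Over probe sets specific by name, the FACIT median was 0.84 and the microfibril median -1.03, and with the background at the 99th percentile the FACIT median was 0.54, both FACIT values over fewer genes. The remaining counts over all collagen genes were within 1.5 times, and the remaining medians of these and of the classes within 0.46, of those reported. Of the lists, over probe sets specific by name 8 modification genes and 4 regulators were 2-fold lower, over fewer genes, and the muscle median was 6.55; by the mean of probe sets 0 regulators were 2-fold higher. Without a floor 1 processing gene and 2 receptors were 2-fold higher. A count of muscle, cartilage, osteoblast, epithelial, fibroblast or Schwann and neural crest markers moved by over 1.5 times under at least 1 alternative each. No paired analysis was possible because each condition had 1 array. The number of arrays limits every value, and for COL9A2, COL9A3, COL11A2, COL7A1 and COL23A1 so does the signal. With the background at the 99th percentile, none of these genes was above it on either array by the brightest probe set.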

Other observations

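Among collagen genes outside the 39, COL6A6, a chain that can take the place of COL6A3 in type VI collagen, had an intensity of 32.3 on control-OG, just under background, against 117 on SB-OG, at least 3.58-fold higher, with its other probe set under background at 8.12 and 13.7. COL26A1 was at 16.5 on control-OG against 90.9 on SB-OG, at least 2.79-fold higher by 1 of its 2 probe sets. COL6A5, COL20A1 and COL28A1 were under background on both arrays by all their probe sets.

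Among the modification genes, TMEM38B, an endoplasmic reticulum ion channel needed for collagen maturation in bone, went against the list, with 192 on control-OG against 641 on SB-OG. It was named after its value was seen.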
